A study of Mus musculus with 8 samples.

Results

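10 genes that mark resting cardiac fibroblasts were examined in mouse heart: Dpt, Tcf21, Pdgfra, Smoc2, Gsn, Dcn, Lum, Mfap4, Pi16 and Scara5. They were taken by symbol from a deposited table of 27304 genes, and each symbol matched 1 row. They were selected on their adenine and control levels in these same libraries. The series profiled whole heart of male 129/Sv mice by bulk RNA sequencing. 4 libraries came from mice fed 0.15% adenine for 13 weeks, a diet that injures the kidney and is labelled as chronic kidney disease. The other 4, titled Sham and labelled healthy, came from mice on a standard control diet for the same 13 weeks. The labels state that kidney disease was followed in the adenine mice by plasma creatinine and urea and by kidney fibrosis. They give no genotype, transgene or age. The labels do not say that each library is a separate animal, so the spread between libraries may be technical.

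Fibroblasts build and renew the collagen network of the heart. At rest they carry the receptor PDGFRA and the transcription factor TCF21 and secrete small matrix proteins that space and bind collagen fibrils. On injury they can become activated, when they contract and lay down fibrillar collagen, periostin and fibronectin, and in mouse heart this state is known to come with less Tcf21. In whole tissue, fewer fibroblasts and less RNA per fibroblast cannot be told apart.

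Total counts were 15626620 to 29831706 over the 4 adenine libraries and 24107554 to 33886385 over the 4 controls, and adenine 2 was the shallowest. Mitochondrially encoded transcripts took 34.2% to 41.9% of counts on adenine and 31.0% to 35.6% on the control diet. The cardiomyocyte genes Myl2 and Actc1 averaged 6128 ± 1685 and 4377 ± 982 CPM in adenine hearts and 6545 ± 421 and 6004 ± 1034 CPM in controls (SD, n = 4), as the heart label states. CPM are counts scaled to a common library size, with TMM factors that correct for differences in library composition. Adenine 3 stood apart from the other libraries in activated fibroblast and macrophage genes, and its values are given beside the results below. All 10 markers passed the low-count filter, with at least 100 reads in every library.

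All 10 markers had a lower fitted level on the adenine diet, with a median log2 fold change (adenine minus control) of -0.81, against 0.05 over the 20093 genes tested, of which 45.8% had a negative value. In 5 of them, Dpt, Tcf21, Pdgfra, Smoc2 and Dcn, every adenine library lay below every control library, a pattern found in that direction in 3.84% of all genes tested, and in the other direction in 3.45%. The markers were chosen with this contrast known, so these values describe them and carry no test. At an adjusted p under 0.05 in edgeR's quasi-likelihood test, 0 of the 10 markers were called lower, as was 0% of all genes, while 0 of the 10 and 0.0398% of all genes were called higher. 8 of the 10 had an unadjusted p under 0.05 in the lower direction, as did 6.63% of all genes. DESeq2 called 5 of the 10 lower and 0 higher (0.871% and 0.761% of all genes), limma-voom 0 lower and 0 higher (0% and 0.0249% of all genes), and edgeR without adenine 3 called 2 lower (0.144% of all genes).

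**Figure D1:**
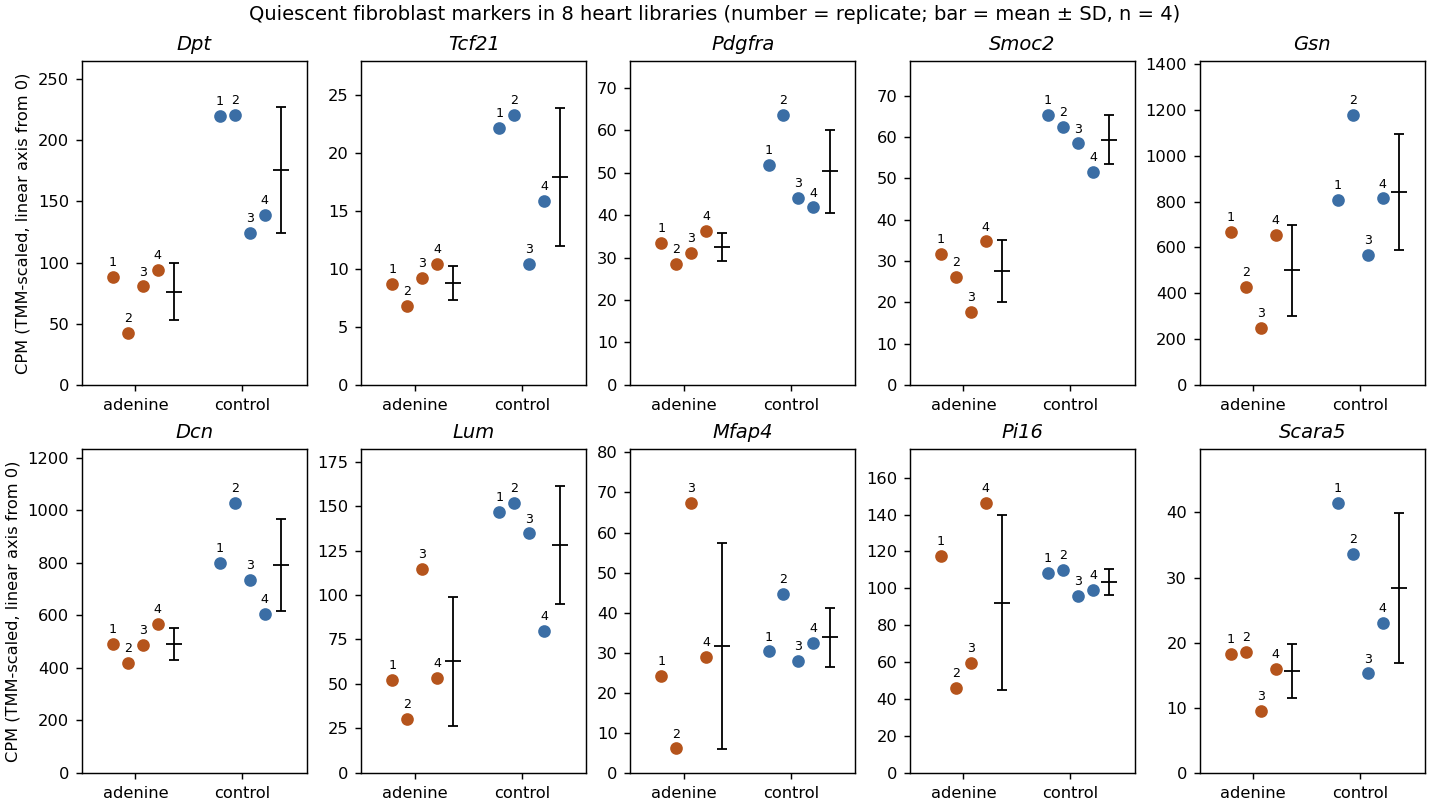
TMM-scaled CPM (linear axes from 0) of each of the 10 markers in the 4 adenine and 4 control libraries, numbered by replicate, with mean ± SD (n = 4) at the right of each group. The diets are separate for Dpt, Tcf21, Pdgfra, Smoc2 and Dcn, and overlap for Gsn, Lum, Mfap4, Pi16 and Scara5.

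Among regulators of fibroblast identity, Tcf21 encodes a basic helix-loop-helix factor that directs epicardial cells to the fibroblast fate. The gene (ENSMUSG00000045680) lies on the minus strand of chromosome 10, from 22817281 to 22820174 on GRCm38, the build of all positions here. Its level was 8.72, 6.79, 9.20 and 10.4 CPM in adenine 1 to adenine 4, against 22.1, 23.2, 10.4 and 15.9 CPM in control 1 to control 4. The gap between the diets was narrow, since adenine 4 with 278 reads and control 3 with 280 reads were alike after scaling. The means were 8.77 ± 1.50 CPM on adenine and 17.9 ± 5.96 CPM on the control diet (SD, n = 4), with a log2 fold change of -1.03 (SE 0.24). Control 1 and control 2 were about as high as each other and well above the other 2 controls, so the controls spread more than the adenine libraries. Under upper-quartile scaling or a filter of 1 CPM in 4 libraries the diets overlapped for Tcf21, and 4 rather than 5 markers had separate diets.

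Pdgfra encodes the alpha receptor for platelet-derived growth factor, a surface marker by which fibroblasts are sorted. The gene (ENSMUSG00000029231) spans 75152292 to 75198215 on chromosome 5, plus strand. It stood at 33.5, 28.6, 31.2 and 36.3 CPM in adenine 1 to adenine 4, against 51.9, 63.6, 44.0 and 41.8 CPM in control 1 to control 4. The adenine libraries were tightly grouped, adenine 3 included, and all lay under the lowest control. The log2 fold change was -0.63 (SE 0.16) and was -0.63 without adenine 3. Exons of Pdgfra overlap the antisense gene Gm42802 over 456 bases, 4.55% of its exon length, and strand use in counting was not given in the sources used here.

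Of the secreted matrix proteins, Dpt encodes dermatopontin, which binds decorin and promotes collagen fibril formation. Its gene (ENSMUSG00000026574) spans 164796644 to 164824266 on chromosome 1, plus strand. Adenine 1 to adenine 4 had 87.9, 42.6, 80.5 and 93.8 CPM of it, and control 1 to control 4 had 220.1, 221, 124 and 139 CPM. Each adenine library was lower than each control, and adenine 2 was lowest of all. With means of 76.2 ± 23.0 CPM on adenine and 176 ± 51.5 CPM on the control diet (SD, n = 4), its level was 56.7% lower, the largest difference among the 10. The log2 fold change was -1.21 (SE 0.26).

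Smoc2 encodes a calcium-binding matricellular protein of the SPARC family. Its gene (ENSMUSG00000023886) spans 14279506 to 14404790 on chromosome 17, plus strand. Its 4 adenine libraries had 31.7, 26.2, 17.7 and 34.7 CPM, and its 4 controls 65.3, 62.4, 58.4 and 51.4 CPM. No other marker had a wider gap between the diets relative to its SE: the log2 fold change was -1.11 (SE 0.19). Adenine 3 was the lowest library for Smoc2, and without it the log2 fold change was -0.95.

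Dcn encodes decorin, a small leucine-rich proteoglycan that coats collagen fibrils and binds TGF-beta. Its gene (ENSMUSG00000019929) spans 97479609 to 97518143 on chromosome 10, plus strand. Levels were 492, 419, 489 and 569 CPM in adenine 1 to adenine 4 and 800.1, 1028, 735 and 605 CPM in control 1 to control 4. The highest adenine library thus came close to the lowest control. The log2 fold change was -0.69 (SE 0.20), and -0.69 without adenine 3.

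Lum encodes lumican, a second proteoglycan of that family, which regulates fibril diameter. Its gene (ENSMUSG00000036446) spans 97565128 to 97572703 on chromosome 10, plus strand. It had 52.5, 30.3, 115 and 53.6 CPM in adenine 1 to adenine 4, against 147, 152, 135 and 79.6 CPM in control 1 to control 4. Adenine 3 lay within the control range, while the other 3 adenine libraries were all under control 4, the lowest control. The log2 fold change was -1.03 (SE 0.33) with all libraries and -1.50 without adenine 3. Dcn and Lum are neighbours on the plus strand of chromosome 10 (GRCm38), 46984 bases apart with 0 annotated genes between them. On the far side of Lum the same cluster holds Kera and Epyc, 34175 and 71364 bases away, which encode further members of the family. In adenine 3 Lum was at its highest adenine level, while its neighbour Dcn was near the middle of its adenine values.

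Mfap4 encodes a microfibril-associated protein that binds elastin and collagen. Its gene (ENSMUSG00000042436) spans 61485431 to 61488900 on chromosome 11, plus strand. On the log2 scale it had the largest SD of the 10 on the adenine diet, 1.43, with levels of 24.3, 6.11, 67.3 and 29.0 CPM in adenine 1 to adenine 4, against 30.3, 44.7, 27.9 and 32.4 CPM in control 1 to control 4. Adenine 3 was above every control and adenine 2 far below every control. The log2 fold change of -0.09 (SE 0.47) was -0.77 without adenine 3 and 0.25 without adenine 2, so its sign rests on single libraries. It also turned to 0.018 with upper-quartile factors. On the opposite strand Mapk7 overlaps 4.63% of its exon length.

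Gsn encodes gelsolin, which severs actin filaments and also circulates in plasma. Its gene (ENSMUSG00000026879) spans 35256380 to 35307892 on chromosome 2, plus strand. It had 667, 427, 249 and 653 CPM in adenine 1 to adenine 4 and 808, 1177, 566 and 814 CPM in control 1 to control 4. Only control 3 was within the range of the adenine libraries. The log2 fold change was -0.75 (SE 0.31), and -0.54 without adenine 3, the lowest library. Gelsolin is also made in cardiomyocytes and smooth muscle, so its transcripts in whole heart need not come from fibroblasts alone.

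Pi16 and Scara5 mark adventitial fibroblasts, which lie around vessels and are often described as a reservoir of progenitors. Pi16 (ENSMUSG00000024011) spans 29317680 to 29330593 on chromosome 17 and Scara5 (ENSMUSG00000022032) 65666403 to 65764826 on chromosome 14, both on the plus strand. Pi16, which encodes a secreted peptidase inhibitor, had 117, 45.9, 59.8 and 146 CPM in adenine 1 to adenine 4 and 108, 110.1, 95.9 and 99.4 CPM in control 1 to control 4. 2 adenine libraries were above all the controls and 2 below them, whereas the controls were nearly level. Its log2 fold change was -0.16 (SE 0.29), ranging from -0.46 without adenine 4 to 0.06 without adenine 2. An antisense gene overlaps 3.49% of its exon length. Scara5, a scavenger receptor that takes up ferritin, had 18.2, 18.6, 9.58 and 16.0 CPM in adenine 1 to adenine 4 and 41.4, 33.6, 15.3 and 23.0 CPM in control 1 to control 4. Control 3 fell within the adenine range, and the log2 fold change was -0.87 (SE 0.28). Scara5 was at its highest adenine level in adenine 2, where Pi16 was at its lowest.

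**Figure D2:**
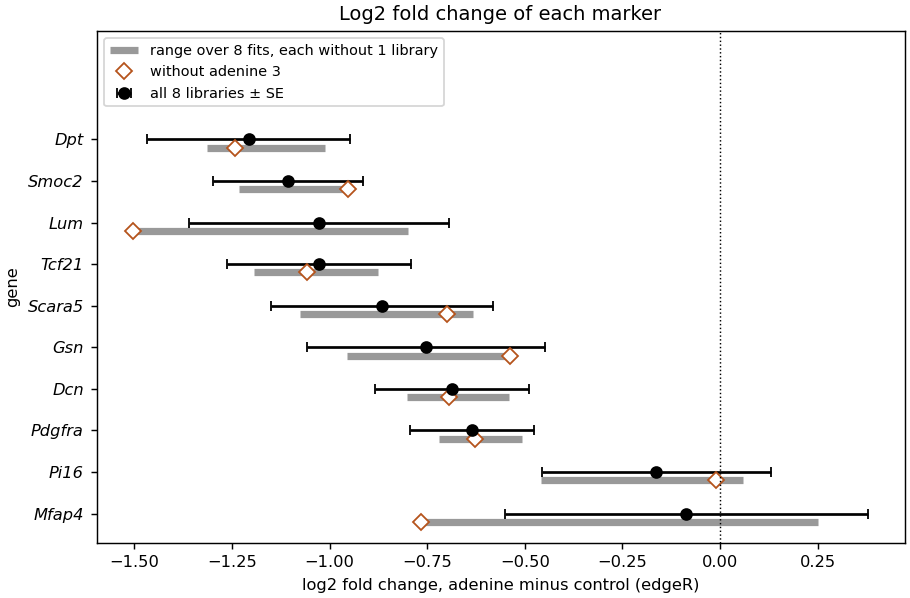
Log2 fold change of each marker (adenine minus control, edgeR, ± SE), with the range over 8 fits that each leave out 1 library in grey and the value without adenine 3 as an open diamond. Dpt, Smoc2, Lum and Tcf21 lie at or beyond -1.03, Lum and Mfap4 move to -1.50 and -0.77 without adenine 3, and the ranges of Mfap4 and Pi16 cross 0.

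Compared per kilobase of exon, which allows genes of different length to be set side by side, the 10 markers spanned a 57.3-fold range in the controls. Gsn was highest, at 158 ± 63.3 CPM per kilobase in adenine hearts and 266 ± 79.9 in controls, followed by Dcn at 84.3 ± 10.5 in adenine hearts and 136 ± 30.3 in controls (SD, n = 4). Dpt had 44.2 ± 13.4 in adenine hearts and 102 ± 29.9 in controls. Lum, with 25.6 ± 14.8 on adenine and 52.3 ± 13.5 on the control diet, came next. Mfap4 and Pi16 had 16.5 ± 13.4 and 14.5 ± 7.45 CPM per kilobase on adenine, against 17.6 ± 3.87 and 16.2 ± 1.08 on the control diet, a difference within their spread. Smoc2 and Tcf21 also lay within each other's spread, with 3.97 ± 1.07 and 3.74 ± 0.639 on adenine and 8.54 ± 0.863 and 7.63 ± 2.54 on the control diet. Pdgfra and Scara5 were lowest, with 3.23 ± 0.331 and 2.56 ± 0.685 on adenine and 5.02 ± 0.982 and 4.65 ± 1.89 on the control diet.

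**Figure D3:**
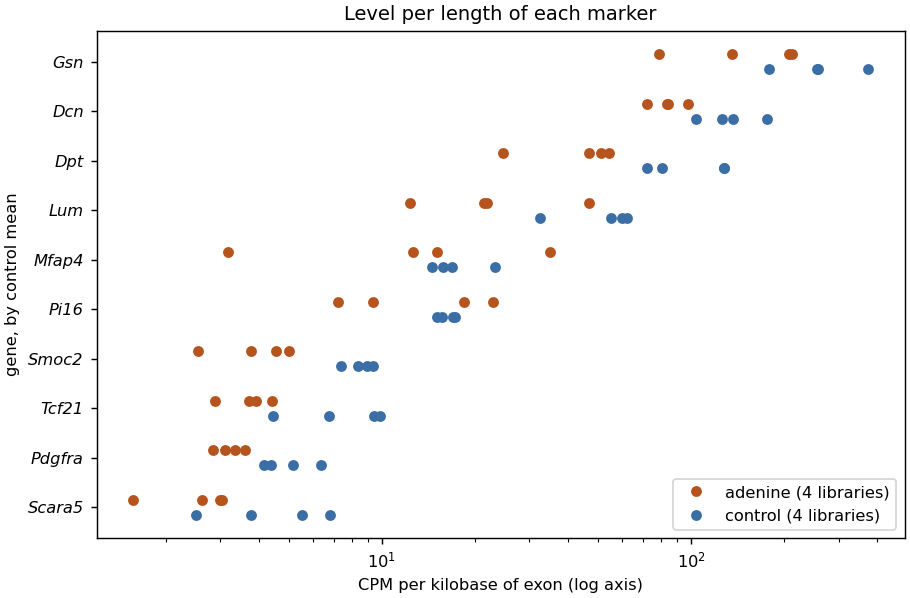
Level of each marker in CPM per kilobase of exon (log axis) in each adenine and each control library, ordered by control mean. Gsn leads with 158 CPM per kilobase on adenine and 266 on the control diet, and Scara5 is last with 2.56 on adenine and 4.65 on the control diet.

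Some libraries were low or high for many of the markers. Adenine 2 was lowest of its diet for 7 of the 10, where it was lowest for 23.3% of all genes, and adenine 3 was lowest for the remaining 3, Smoc2, Gsn and Scara5, and for 43.5% of all genes. Adenine 4 was highest for 6. On the control diet, control 2 was highest for 8 and lowest for 0, where it was lowest for 35.7% of all genes. No share over all genes is given for the highest library. Control 3 was lowest for 6 and control 4 for 4, against 20.2% and 29.5% of all genes. The mean of the 10 on the log2 scale, relative to the control mean, was -0.64, -1.32, -0.81 and -0.52 in adenine 1 to adenine 4, against 0.18, 0.33, -0.30 and -0.21 in control 1 to control 4. Adenine 2 also had the lowest total count and the highest mitochondrial share, 41.9%, and whether these bear on its low marker levels was not tested. Without adenine 2 the median log2 fold change of the 10 was -0.74, and without adenine 3 it was -0.73.

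**Figure D4:**
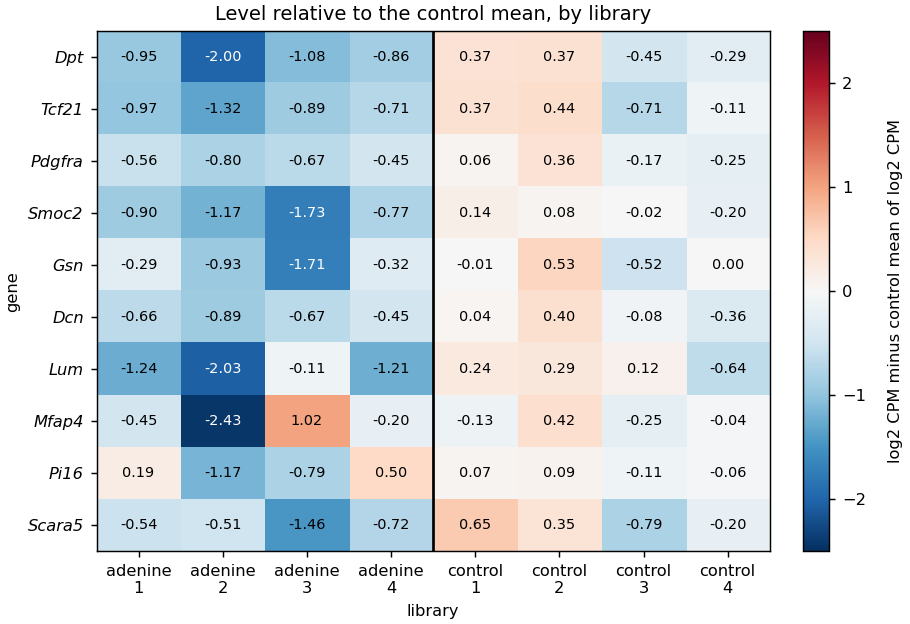
Log2 CPM of each marker in each library minus its mean over the 4 controls, with adenine libraries left of the line. Blue cells fill the adenine columns except for Mfap4 in adenine 3 (1.02) and Pi16 in adenine 1 (0.19) and adenine 4 (0.50), and the deepest value is Mfap4 in adenine 2 (-2.43).

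As a measure that does not contain the diet difference, deviations of log2 CPM from the diet mean were compared over the 8 libraries. Dpt followed the mean of the other 9 markers most closely, with Pearson's r = 0.92, then Pdgfra with 0.91, Dcn with 0.82 and Tcf21 with 0.80. Lum, with r = 0.27, and Mfap4, with 0.35, followed it least. Among 16012 other genes averaging 1 CPM or more, the 10 most alike were Serping1, the inhibitor of complement C1, Il17d, Aamp, Oaz1, Igfbp4, Tmem107, Mettl26, Gm2260, Acta2 and Plekha4, with r = 0.96 to 0.98. The points of each r share the same 8 libraries and their depth and scaling. Of these 10 genes 0 were among the 10 most alike without adenine 2. The 30 other genes of resident fibroblasts had a median r of 0.68 with the markers, positive for 27 of them, against 56.1% of all genes compared. Adipocyte genes had a median r of 0.78 with the markers (7 genes) and Schwann cell genes 0.63 (7 genes), against 0.10 over all genes. The adipocyte mean was 1.61 in control 2 and -1.48 in control 3 on the log2 scale, the same 2 controls that were highest and lowest for most markers. Adipocyte genes summed to 139 to 244 CPM on adenine and 98.9 to 308 CPM on the control diet, so the diets overlapped, and the part of such tissue in the marker levels was not tested.

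Promoters in RefSeq's GRCm38.p6 table matched 5 of the 10 genes. Those of Dpt, Pdgfra and Tcf21 are shown because these 3 had separate diets and an entry. Each is the 250 bases before the RefSeq start, read 5′ to 3′ on the gene's strand. Capitals mark CANNTG, the E-box core that factors such as TCF21 bind with a partner, which reads alike on both strands. The windows are chr1:164796413-164796662 on the plus strand for Dpt, chr5:75152001-75152250 on the plus strand for Pdgfra and chr10:22820144-22820393 on the minus strand for Tcf21.
Dpt: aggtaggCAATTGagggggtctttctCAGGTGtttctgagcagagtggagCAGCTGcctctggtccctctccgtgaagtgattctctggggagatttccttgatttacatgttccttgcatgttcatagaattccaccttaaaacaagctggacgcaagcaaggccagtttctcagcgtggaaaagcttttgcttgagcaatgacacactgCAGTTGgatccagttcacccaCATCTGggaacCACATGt
Pdgfra: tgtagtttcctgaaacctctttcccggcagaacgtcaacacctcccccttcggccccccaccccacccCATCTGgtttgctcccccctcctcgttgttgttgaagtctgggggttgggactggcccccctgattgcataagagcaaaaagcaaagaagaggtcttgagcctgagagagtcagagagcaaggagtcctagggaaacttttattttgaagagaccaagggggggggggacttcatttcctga
Tcf21: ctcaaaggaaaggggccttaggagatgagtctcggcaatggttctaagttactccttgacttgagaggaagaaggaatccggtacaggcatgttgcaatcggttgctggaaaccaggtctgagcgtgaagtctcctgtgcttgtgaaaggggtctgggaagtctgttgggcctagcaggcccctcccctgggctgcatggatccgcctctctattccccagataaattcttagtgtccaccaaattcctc
The Dpt window held 6 such cores, the Pdgfra window 1 and the Tcf21 window 0. Of 32851 windows of this length, 66.2% held at least 1 and 0.274% held 6 or more. The form CAGCTG occurred once in the Dpt window and in 13.0% of all windows, and it overlaps the CANNTG count. A match is a run of letters and not a shown site of binding.

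Other genes of resident fibroblasts, a list of 30 that holds none of the 10, lay on the same side. 24 of them had negative log2 fold changes and the median was -0.59, against 0.05 over all genes. In edgeR 0 were called, 17 had an unadjusted p under 0.05 with a negative value (6.63% of all genes) and 0 with a positive one (10.9% of all genes). DESeq2 called 5 lower (0.871% of all genes) and limma-voom 0. Diets were separate for 7, all lower on adenine, against 3.84% of all genes. Cd34, a sialomucin of progenitors and endothelium, had 101, 63.1, 101 and 97.1 CPM in adenine 1 to adenine 4 and 202, 141, 134 and 143 CPM in control 1 to control 4, with a log2 fold change of -0.77 (SE 0.19, adjusted p = 0.170). Abca8a, a lipid transporter, had -0.88 (SE 0.20, adjusted p = 0.141). The most abundant per length were Ly6a, known as Sca-1, at 0.14 (SE 0.18), Clec3b, which encodes tetranectin, at -0.61 (SE 0.28), the dipeptidase gene Dpep1 at -0.62 (SE 0.19) and the chemokine gene Cxcl14 at -0.63 (SE 0.27).

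Genes shared by fibroblasts in any state were divided. Of 20, 10 had negative and 10 positive log2 fold changes. In edgeR 0 were called, in DESeq2 2 were called lower (0.871% of all genes) and in limma-voom 0. DESeq2 gave no adjusted p for Col5a2 and S100a4, so it could not call them. An unadjusted p under 0.05 in edgeR was found for 5 negative values (6.63% of all genes) and 0 positive ones (10.9% of all genes). Diets were separate for 3 of the 20, all lower on adenine, against 3.84% of all genes. Ddr2, a collagen receptor, and Col6a2, a chain of collagen VI, had -0.66 (SE 0.16, adjusted p = 0.149) and -0.80 (SE 0.20, adjusted p = 0.171). Mgp, Vim, Sparc and P4hb, the most abundant per length, had -0.29 (SE 0.28), -0.05 (SE 0.42), 0.05 (SE 0.38) and 0.09 (SE 0.29). The median was 0.0033 with all libraries, -0.25 with limma-voom and -0.57 without adenine 3, so its sign depends on the test and on that library. For Vim, Sparc and P4hb the sign turned with a single library left out or with another scaling or test.

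Activated fibroblast genes had 20 of 26 positive values and a median log2 fold change of 0.62, which was -0.02 without adenine 3 and 0.33 with limma-voom. Diets were separate for 4 of the 26, all higher on adenine, against 3.45% of all genes. Of these genes 0 were called in edgeR, DESeq2 or limma-voom. DESeq2 gave no adjusted p for Cthrc1, Fn1, Tnc, Lox and Ccn4, so it could not call them. An unadjusted p under 0.05 in edgeR was found for 9 positive and 1 negative value, against 10.9% and 6.63% of all genes. Their mean on the log2 scale was 0.17, -0.42, 1.68 and 0.35 in adenine 1 to adenine 4, against 0.13, -0.09, 0.05 and -0.09 in control 1 to control 4. Postn, which encodes periostin, had 163, 28.7, 1452 and 119 CPM in adenine 1 to adenine 4 and 165, 92.4, 198 and 118 CPM in control 1 to control 4. Thus adenine 3 alone was above the controls for Postn. Lox, the enzyme that crosslinks collagen, had 20.2, 10.3, 172 and 13.5 CPM on adenine and 9.41, 8.06, 8.94 and 7.11 CPM on the control diet, and was separate between the diets (log2 fold change 2.69, SE 0.74, adjusted p = 0.203, and 0.80 without adenine 3). The other 3 with separate diets, named after their values were seen, were Cthrc1, Tnc and Runx1, with log2 fold changes of 3.68, 2.64 and 1.38, or 0.81, 0.77 and 0.64 without adenine 3. Timp1, an inhibitor of matrix proteases, had 2.50 (SE 0.65, adjusted p = 0.182), and 1.16 without adenine 3. Ccn2, a matricellular protein, had 0.67 (SE 0.43), with 23.2% of its exon length under an antisense gene, and Acta2, the actin of smooth muscle and myofibroblasts, had -0.91 (SE 0.40).

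The mean of activated fibroblast genes was highest in adenine 3. Its mean of the resting markers, -0.81, lay inside the range of the other adenine libraries, -1.32 in adenine 2 to -0.52 in adenine 4. Of the 10 markers, 8 were below every control in adenine 3, against 7 in adenine 1, 9 in adenine 2 and 6 in adenine 4. No share over all genes is given for these counts, and adenine 3 was lowest of its diet for 43.5% of all genes. The exceptions in adenine 3 were Lum and Mfap4. Macrophage genes summed to 505, 382, 2712 and 341 CPM in adenine 1 to adenine 4, against 695, 460.4, 411 and 418 CPM in control 1 to control 4. The part of that difference in the marker levels of adenine 3 was not tested. In adenine 1, adenine 2 and adenine 4 the marker mean was -0.64, -1.32 and -0.52, while the mean of the activated genes was above all controls in adenine 1 and adenine 4 and below all controls in adenine 2.

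**Figure D5:**
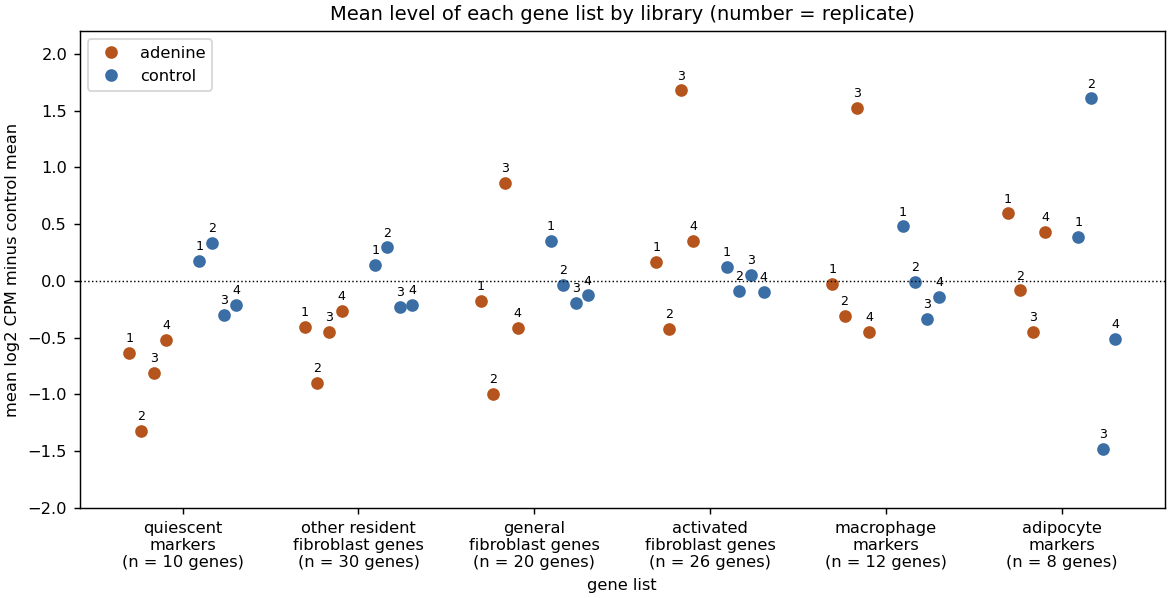
Mean log2 CPM of 6 gene lists in each library minus the control mean, with replicates numbered and adenine libraries left of controls. Quiescent markers are at -1.32 to -0.52 in adenine libraries and -0.30 to 0.33 in controls, and activated fibroblast genes are at 1.68 in adenine 3, 0.17 in adenine 1, 0.35 in adenine 4 and -0.42 in adenine 2.

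In the small leucine-rich proteoglycan family, to which Dcn and Lum belong, 14 of 15 other genes were tested, 8 of them with negative values and a median of -0.06. In edgeR 0 were called, DESeq2 called 3 lower (0.871% of all genes) and limma-voom 0. DESeq2 gave no adjusted p for Aspn, so it could not call it. An unadjusted p under 0.05 in edgeR was found for 5 negative values (6.63% of all genes) and 0 positive ones (10.9% of all genes). Prelp, a collagen anchor in basement membranes, had 26.4, 22.5, 21.8 and 39.9 CPM in adenine 1 to adenine 4 and 53.5, 72.6, 46.7 and 51.5 CPM in control 1 to control 4. It was lower in every adenine library than in any control (log2 fold change -1.02, SE 0.21, adjusted p = 0.115), and 9.68% of its exon length overlaps an antisense gene. Ecm2, with -1.05 (SE 0.22, adjusted p = 0.115), was also separate between the diets. Diets were separate for 2 of the 14 with lower levels on adenine and 0 with higher, against 3.84% and 3.45% of all genes. Among the most abundant, Ogn, which encodes osteoglycin, had -0.59 (SE 0.23) and biglycan's gene Bgn -0.07 (SE 0.26). Aspn, which encodes asporin, had 26.6, 16.9, 144 and 25.9 CPM in adenine 1 to adenine 4, against 46.3, 35.0, 60.6 and 37.7 CPM in control 1 to control 4. Like Lum and Mfap4, it was highest of its diet in adenine 3.

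Other genes of the platelet-derived growth factor system had smaller values than Pdgfra, a difference that was not tested. Of 6 ligands and receptors 0 were called in edgeR, DESeq2 or limma-voom and 0 had an unadjusted p under 0.05. Pdgfrb, the beta receptor of pericytes, averaged 44.1 ± 4.24 CPM on adenine and 47.9 ± 4.30 CPM on the control diet (SD, n = 4), with -0.12 (SE 0.13), or 0.01 with upper-quartile factors. The ligand genes Pdgfa, Pdgfb and Pdgfd had -0.04 (SE 0.16), -0.23 (SE 0.19) and -0.16 (SE 0.14), and 26.1% of the exon length of Pdgfa lies under an antisense gene.

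Of 18 transcription regulators around TCF21, which include its dimer partners, the ID proteins that sequester those partners, and other fibroblast factors, 12 had negative values and the median was -0.26. In edgeR 0 were called, DESeq2 called 2 lower and 1 higher (0.871% and 0.761% of all genes), and limma-voom 0. Negative values had an unadjusted p under 0.05 in 4 genes and positive ones in 1, against 6.63% and 10.9% of all genes. Diets were separate for 2 genes lower and 1 higher on adenine, against 3.84% and 3.45% of all genes. Hic1, a repressor that keeps mesenchymal progenitors quiescent in mouse, had 9.24, 8.99, 10.3 and 12.8 CPM in adenine 1 to adenine 4, against 23.1, 14.9, 15.5 and 16.6 CPM in control 1 to control 4. All its adenine libraries were below all its controls (log2 fold change -0.76, SE 0.18, adjusted p = 0.149). Klf4 was separate in the other direction, with 78.4, 57.5, 63.3 and 72.9 CPM on adenine and 44.1, 42.3, 47.4 and 45.0 CPM on the control diet (0.61, SE 0.14, adjusted p = 0.142). The dimer partner Tcf4 had -0.13 (SE 0.19), and Id1 and Id3 had 0.41 (SE 0.21) and -0.16 (SE 0.15).

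Relatives of the markers by sequence family or by gene name, 18 genes, had a median of -0.16 with 11 negative values. In edgeR, DESeq2 and limma-voom 0 were called, and edgeR without adenine 3 called 1 lower (0.144% of all genes). Negative values had an unadjusted p under 0.05 in 3 genes and positive ones in 3, against 6.63% and 10.9% of all genes. Diets were separate for 1 gene, higher on adenine, against 3.45% of all genes. Flii and Svil, relatives of gelsolin, had -0.18 (SE 0.15) and -0.29 (SE 0.19). Mfap5, related to Mfap4 by name only and also in the list of other resident fibroblast genes, had 0.89 (SE 0.47), or 0.07 without adenine 3. Among scavenger receptor genes, Msr1 had 2.09 (SE 0.69, adjusted p = 0.235), or 0.37 without adenine 3, and Marco 1.11 (SE 0.37, adjusted p = 0.236), averaging 2.01 CPM on adenine and 0.926 CPM on the control diet. Tcf15 had -0.66 (SE 0.25).

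Markers of other cells gave 0 calls in edgeR in every list. DESeq2 called 2 endothelial genes lower (0.871% of all genes) and 0 in the other lists, and limma-voom 0 in all. Negative values had an unadjusted p under 0.05 in 2 of 10 epicardial, 6 of 12 endothelial, 3 of 10 mural and 3 of 8 Schwann cell genes. The share over all genes was 6.63%. Positive values had such a p in 2 epicardial, 1 of 12 macrophage and 1 of 8 adipocyte genes, against 10.9% of all genes. Of 12 cardiomyocyte genes 0 had such a p in either direction. Every adenine library was below every control in 3 of 12 endothelial genes, Pecam1, Tek and Emcn, and in 1 of 8 Schwann cell genes, Cnp, against 3.84% of all genes, and in 0 genes of the other lists. These were named after their values were seen, and their part in the marker levels was not tested. Summed levels overlapped between the diets in each list. Epicardial genes summed to 20.5 to 35.8 CPM on adenine and 17.1 to 44.4 CPM on the control diet, and cardiomyocyte genes to 37172 to 61614 CPM on adenine, lowest in adenine 3, and 52920 to 65686 CPM on the control diet. 0 genes of any list were without reads in every library. Endothelial genes summed to 1391 to 2096 CPM on adenine and 1689 to 2313 CPM on the control diet, and their median log2 fold change was -0.38. Mural genes summed to 1888 to 3326 CPM on adenine and 2069 to 3057 CPM on the control diet, with a median of -0.31. Schwann cell genes summed to 26.6 to 35.3 CPM on adenine and 27.5 to 51.7 CPM on the control diet. For the 2 most abundant genes per length of each list, log2 fold changes were -1.28 for Upk3b and 1.26 for Krt18, -0.46 for Actc1 and -0.09 for Myl2, 0.14 for Fabp4 and -0.65 for Aqp1, and -0.32 for Rgs5 and 0.19 for Des. They were 1.62 for Lyz2 and 0.07 for C1qa, -0.81 for Cfd and 0.46 for Plin4, and -0.59 for Cnp and -0.14 for Gfra3.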

How the data were processed

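Per the labels' protocols, RNA was isolated from frozen heart with a TriFast kit and sequenced after NEBNext Ultra library preparation. The submitters' processing notes list FastQC 0.11.9, STAR 2.7.6a and GRCm38.p6. Counting program, annotation and strand use were not given in the sources used here. Values are the authors' raw read counts per gene, deposited as whole numbers without scaling. Groups came from sample titles. The main test was that of edgeR 4.0.16 in R 4.3.3: default filter by group, TMM factors, quasi-likelihood F-test of diet, with Benjamini-Hochberg adjustment over 20093 genes and SE derived from F. Levels per kilobase use union exon lengths of GENCODE M21 (GRCm38), and likeness uses log2 CPM with a prior count of 2. DESeq2 1.42.0 (alpha 0.05) and limma-voom (limma 3.58.1), other scalings and filters, each library left out and a replicate block were alternatives.

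The 10 markers and all gene lists were chosen with earlier results of these data known. Named genes were the 10 markers, the 4 most abundant and 2 lowest p per fibroblast or family list, the 2 most abundant per list of other cells, and the 10 most alike genes. On simulated counts for adenine against control, run on 19623 genes, edgeR recovered 57% of changes of 1 log2 unit and 89% of changes of 2 log2 units, with 9 false calls among 155. Libraries of 1 diet were no duplicates (chi-square per gene 18.7 to 86.1). A level of 1 CPM is about 15.6 reads in the shallowest library.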

Additional observations from a re-analysis of the deposited data

Results flagged for a closer look

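Single libraries far from the other 3 of their diet were sought in the 10 markers and in the genes named from the fibroblast and family lists. Among 47 genes and 2 diets, 94 groups in all, 9 had such a library, and 0 of these were among the 10 markers. For independent groups chance gives about 1 in 20. These groups share the same 8 libraries, so the count cannot be compared with that rate. Adenine 3 was far above the other adenine libraries for Postn (1452 CPM, against 28.7 to 163), Lox (172 CPM, against 10.3 to 20.2), Aspn (144 CPM, against 16.9 to 26.6) and Msr1 (58.0 CPM, against 4.26 to 7.72). Adenine 2 was far below them for Cd34 (63.1 CPM, against 97.1 to 101). Control 1 was far above the other controls for Cd34 (202 CPM, against 134 to 143) and Col6a2 (106 CPM, against 64.8 to 69.7). Control 2 was far above them for Ccn2 (138 CPM, against 64.5 to 75.3) and far below them for Pdgfb (32.6 CPM, against 54.3 to 56.0).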

How the results depend on the processing

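The median log2 fold change of the 10 markers, -0.81, was -0.85 to -0.64 under the other scalings, filters and tests and -0.94 to -0.67 with each library left out, within the spread between libraries. Of the 10, 8 or more stayed below 0. Separate diets were found for 4 to 5 under the other scalings, filters and tests and for 5 to 7 with each library left out. A diet with 1 library fewer separates more easily, and no share over all genes is given for these fits. Upper-quartile factors moved the median of all genes from 0.05 to 0.20, and the marker median was then -0.64. The number of genes called was 8, and it was 19 with upper-quartile factors, 328 with DESeq2 (153 higher and 175 lower), 5 with limma-voom, 32 with the replicate block (16 higher and 16 lower), and 1 to 67 with each library left out, the highest without adenine 3. Of the 10 markers 1, Smoc2, was called lower with the replicate block and 1, also Smoc2, without adenine 4, where 6 genes in all were called lower. The cause was not tested. Same-numbered deviations correlated at 0.086, -0.50, -0.16 and 0.30, and 1 of the 4 correlated best with its own number. No pairing by replicate number was seen, but 4 correlations are too few to decide whether there was one.

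The median of activated genes was -0.017 to 0.74 with each library left out, and 0.25 with the replicate block, that of genes shared by fibroblasts in any state -0.25 with limma-voom and -0.29 with the replicate block, that of the proteoglycan family -0.33 to 0.072, and that of the platelet-derived growth factor genes 0.053 with upper-quartile factors. Of the 10 most alike genes, 0 were shared without adenine 2 and 10 with a prior count of 0.5. The control range over the markers was 57.3-fold per kilobase and 46.9-fold in plain CPM. Signs turned for genes that were not called in edgeR, over these ranges with each library left out: Aspn -0.96 to 0.55, Bgn -0.35 to 0.14, C1qa -0.45 to 0.28, Cfd -1.16 to 0.54, Des -0.038 to 0.38, Gfra3 -0.45 to 0.12, Lyz2 -0.15 to 2.01, Myl2 -0.22 to 0.079, P4hb -0.35 to 0.28, Pdgfa -0.12 to 0.052, Plekha4 -0.092 to 0.088, Postn -0.47 to 2.01, Sparc -0.51 to 0.31, Vim -0.77 to 0.22. They also turned with upper-quartile factors for Vim (0.054), Bgn (0.052), Pdgfa (0.093), Pdgfrb (0.013), Myl2 (0.062), Gfra3 (0.013), Plekha4 (0.14), with no filter for Vim (0.019), with a filter of 1 CPM in 4 libraries for Vim (0.024), Pdgfa (0.027), Plekha4 (0.063), with limma-voom for Sparc (-0.13), P4hb (-0.033), Aspn (-0.29), C1qa (-0.086), Cfd (0.15), with the replicate block for Sparc (-0.12), P4hb (-0.027), Aspn (-0.30), C1qa (-0.10), Cfd (0.29). Depth limits values below 1 CPM.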
